A study of Mus musculus with 4 samples.

Results

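A set of 47 genes that encode chromatin regulators was examined in leukemic stem cells (LSCs) of a mouse model of acute myeloid leukemia (AML), with and without the tetraspanin CD37. The genes were chosen by name, as subunits or partners of the MLL and DOT1L, Polycomb and BAF complexes, enzymes of DNA methylation and 4 other histone modifiers, and all 47 were found among the 17104 genes of the expression table. All cells came from lineage-negative bone marrow cells of CD37 fl/fl, Cre+ mice, in which Cre is a tamoxifen-inducible CreERT2, and the cells were infected with a retrovirus that carries MLL-AF9 and YFP. Recipients of these cells received corn oil (CD37 fl/fl) or tamoxifen (CD37-/-), and the YFP+, c-kit+ cells were passed on to sublethally irradiated C57 mice together with supporting bone marrow cells. RNA was taken from sorted bone marrow YFP+, c-kit+ LSCs of male C57 mice 6 weeks after the secondary transplantation, with 2 replicates for each genotype, which the titles of the libraries name CD37 WT and CD37 KO. The C57 mice were bought as young adult males, and neither their age at the sort nor the number of animals behind each library is given in the sources used here, so that p-values measure the spread between these 4 libraries only.

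MLL (KMT2A) is a methyltransferase for lysine 4 of histone H3 that works with menin, LEDGF and a core of WDR5, RBBP5, ASH2L and DPY30. The MLL-AF9 fusion lacks the methyltransferase domain and joins the DNA-binding part of MLL to AF9 (MLLT3), a partner of DOT1L and of the super elongation complex, and so keeps HoxA genes and Meis1 transcribed in this leukemia. Polycomb repressive complexes add methyl groups to lysine 27 of histone H3 (PRC2) or ubiquitin to histone H2A (PRC1), the BAF complex moves nucleosomes, DNMT enzymes methylate CpG sites and TET enzymes oxidize the methyl group. Several of these genes, among them DNMT3A, TET2, ASXL1 and EZH2, are recurrently mutated in human AML.

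The promoter of *Suz12*, a PRC2 gene with one of the largest differences in the values that follow, is shown beside those of its partners *Ezh2* and *Eed*, which differed less, and *Bap1* and *Setd2* are shown as further genes with higher values in CD37-/- LSCs. Each sequence is the 250 bases before the RefSeq transcription start (GRCm38.p6), written 5′ to 3′ on the strand of the gene, and capitals mark matches, on either strand, to TTTGGCGC or TTTCCCGC (E2F), CCAAT (NF-Y), CGCATGCG (NRF1), CCGGAAG (ETS), AAGATGGC (YY1) and GGGCGG (SP). Overlapping matches were counted separately.
Suz12 promoter, chr11:79992856-79993105, plus strand: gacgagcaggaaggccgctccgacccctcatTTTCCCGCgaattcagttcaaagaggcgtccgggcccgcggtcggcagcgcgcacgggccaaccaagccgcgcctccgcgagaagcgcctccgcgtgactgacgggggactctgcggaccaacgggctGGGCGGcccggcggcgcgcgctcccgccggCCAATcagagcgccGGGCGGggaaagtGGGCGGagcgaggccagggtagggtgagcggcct
Ezh2 promoter, chr6:47595031-47595280, minus strand: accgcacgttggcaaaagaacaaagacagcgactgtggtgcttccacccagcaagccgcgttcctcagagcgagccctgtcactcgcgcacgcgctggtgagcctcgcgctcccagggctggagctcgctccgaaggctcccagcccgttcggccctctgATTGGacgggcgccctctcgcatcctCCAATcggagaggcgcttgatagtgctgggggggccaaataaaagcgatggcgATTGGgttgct
Eed promoter, chr7:89980977-89981226, minus strand: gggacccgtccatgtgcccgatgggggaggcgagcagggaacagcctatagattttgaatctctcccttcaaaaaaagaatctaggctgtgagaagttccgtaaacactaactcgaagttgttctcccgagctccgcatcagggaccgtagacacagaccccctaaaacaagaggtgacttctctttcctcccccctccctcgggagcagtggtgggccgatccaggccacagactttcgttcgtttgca
Bap1 promoter, chr14:31251239-31251488, plus strand: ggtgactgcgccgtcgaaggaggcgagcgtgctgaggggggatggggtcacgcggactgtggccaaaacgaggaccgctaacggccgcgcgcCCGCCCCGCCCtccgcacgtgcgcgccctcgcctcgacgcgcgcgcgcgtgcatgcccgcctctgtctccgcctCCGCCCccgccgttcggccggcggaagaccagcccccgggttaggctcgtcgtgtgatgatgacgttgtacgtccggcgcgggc
Setd2 promoter, chr9:110532347-110532596, plus strand: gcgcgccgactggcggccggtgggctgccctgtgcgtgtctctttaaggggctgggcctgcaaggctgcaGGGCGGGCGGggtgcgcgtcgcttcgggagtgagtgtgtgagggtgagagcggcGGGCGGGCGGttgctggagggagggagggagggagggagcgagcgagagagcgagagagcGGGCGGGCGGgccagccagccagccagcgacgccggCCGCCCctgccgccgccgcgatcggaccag
The *Suz12* window held 37 CG pairs, 1 match to TTTCCCGC, 1 to CCAAT and 3 to GGGCGG. *Ezh2* had 3 matches to CCAAT with 23 CG pairs, and *Eed* had 12 CG pairs and no match. *Bap1* and *Setd2* held 3 and 7 matches to GGGCGG with 43 and 31 CG pairs. RefSeq windows were found for 41 of the 47 genes, as 58 windows with a median of 21.5 CG pairs per 250 bases, against 6.0 in all 32807 windows. GGGCGG occurred in 42 of the 58 windows (72.4%; 32.7% of all windows) and in 9 of the 11 windows of genes with a higher value at an unadjusted p under 0.05. *Psip1*, which also had such a value, had no window. TTTCCCGC was present in 3 windows (5.17%; 0.893% of all), of which 2 belonged to *Phf19* and *Suz12*, and TTTGGCGC in 0 (0.418% of all). CCAAT occurred in 32.8% of the members' windows and 33.8% of all windows, CGCATGCG in 3.45% and 1.54%, CCGGAAG in 8.62% and 6.91%, and AAGATGGC in 1.72% and 1.56%. A match describes these letters only and is not evidence of binding.

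Expression was deposited as FPKM (fragments per kilobase of gene, relative to the library depth). The kilobases were those of the whole gene span, introns included, so a gene with long introns has a low FPKM. Levels of different members were therefore compared only as exon FPKM, in which the reads recovered from the values were divided by the exon length. The sums over marker genes given below use the deposited FPKM, so genes with long introns count little in them. Whether the authors counted reads over exons or over the whole span is not given in the sources used here, so exon FPKM, and the shares, ratios and order of levels made from it, may include intronic reads. The libraries held between 15327373 and 22627546 reads. *Cd37*, the deleted gene, had an FPKM of 56.6 and 46.8 in CD37 fl/fl LSCs and 23.2 and 22.9 in CD37-/- LSCs, a log2 fold change of -1.15 (standard error 0.23, unadjusted p = 0.0034 from limma). The exons that gave the remaining *Cd37* reads were not analysed here, and *Tead2* overlaps *Cd37* on the other strand. Fold changes were taken on log2(FPKM + 0.1), on which differences between small values are damped, and limma was run on the 11774 genes whose mean FPKM reached 0.1. At an adjusted p under 0.05, 0 genes (0%) differed, the smallest adjusted p was 0.107, and 2606 genes had an unadjusted p under 0.05. Over all tested genes the log2 fold changes had a median of 0.23, so that a gene above 0 may still lie below the middle of the table.

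Of the 47 chromatin regulators, 45 passed the filter, and *Mllt3* and *Tet1* did not. At an unadjusted p under 0.05 (limma), 9 members were higher in CD37-/- LSCs (20% of those tested, against 16.5% of all tested genes) and 0 were lower (5.61% of all). No member passed at an adjusted p under 0.05, with limma or with limma-voom on the recovered reads, and the smallest in the former was 0.14, for *Dnmt1*. The log2 fold changes ran from -0.43 to 1.30 with a median of 0.35, and 36 were above 0 and 9 below. Relative to the median of all genes, 27 of the 45 were higher, and the 9 lay 0.42 to 1.07 above it on the log2 scale. The 2 CD37-/- libraries both lay above both CD37 fl/fl libraries for 31 members (68.9%; 42.2% of all tested genes), and both lay below for 1, *Smarcb1* (2.22%; 18.6% of all). The count of higher members was thus close to the background, whereas the shares without overlap differed from it in both directions. This was not particular to the members. In the second list of chromatin genes, described below, 68.9% of those tested lay above without overlap and 9.43% below. Shares without overlap were not counted by exon length. After quantile normalization, 5 members were higher (*Bap1*, *Dnmt1*, *Psip1*, *Suz12* and *Wdr5*; 9.13% of all genes) and 1, *Smarcb1*, was lower (10.1% of all genes).

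**Figure D1:**
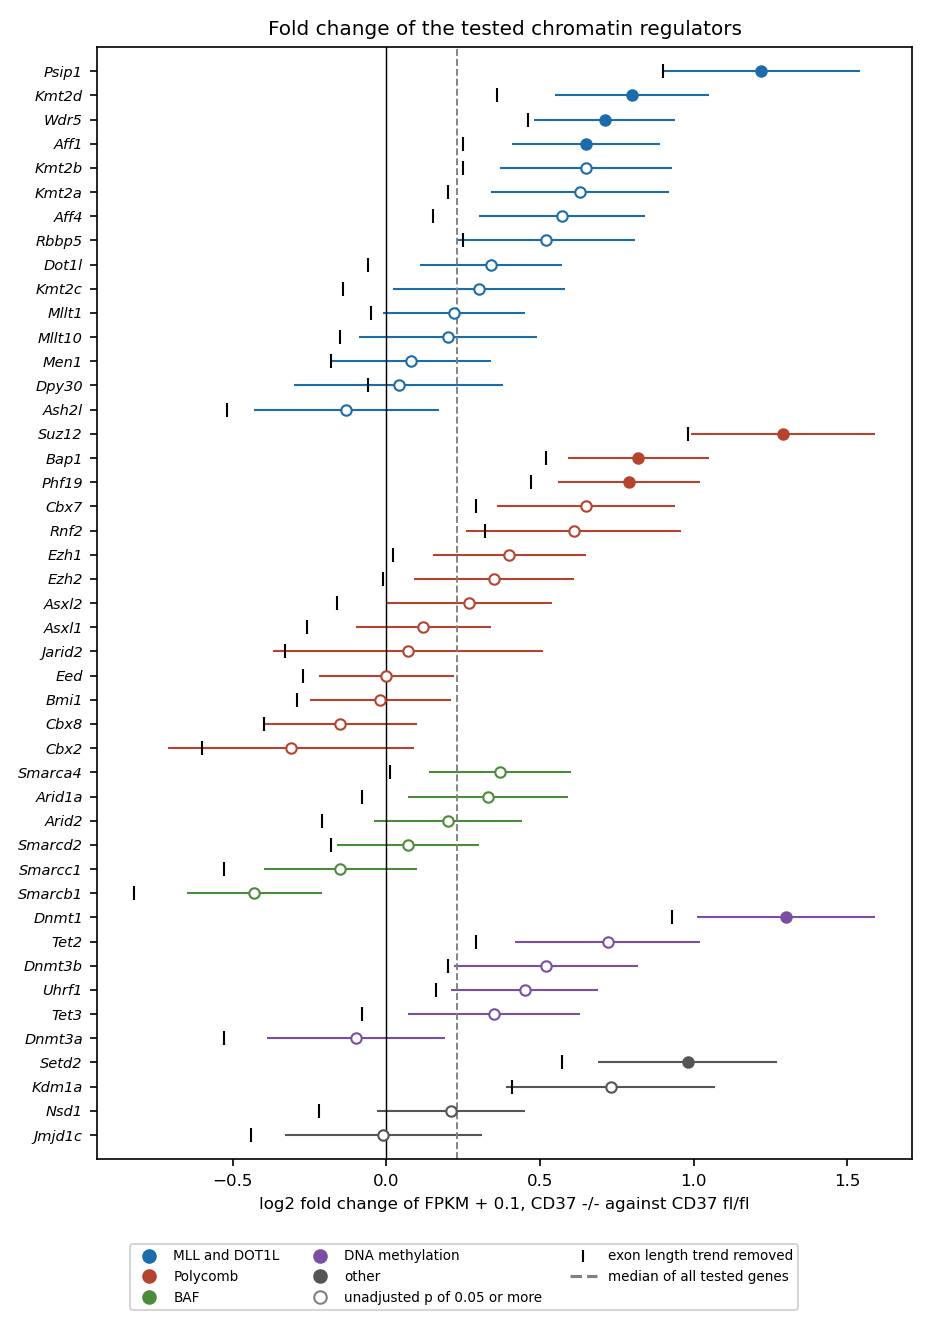
Log2 fold change of FPKM + 0.1 (CD37-/- against CD37 fl/fl) for the 45 tested members by group, with horizontal lines for the standard error of the limma fit, filled points for an unadjusted p under 0.05 and ticks for the value after the exon length trend was removed. The 9 filled points lie between 0.65 and 1.30, and the dashed line marks the median of all tested genes, 0.23.

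The group of MLL and DOT1L genes had a median of 0.52 over the 15 tested of 16, close to the 0.48 of the DNA methylation genes (0.19 and 0.27 after quantile normalization). At an unadjusted p under 0.05, 4 were higher (*Psip1*, *Kmt2d*, *Wdr5* and *Aff1*; 26.7%, against 16.5% of all tested genes). Once the trend with exon length described below was removed, 1 was higher (*Psip1*; 9.66% of all genes). *Psip1* (chromosome 4, 83455680 to 83486459, GRCm38) encodes LEDGF, which ties menin and MLL to chromatin. *Psip1* FPKM was 0.146 and 0.268 in CD37 fl/fl LSCs and 0.553 and 0.658 in CD37-/- LSCs, from 69 and 143 reads against 302 and 458. The groups did not overlap, although the CD37 fl/fl libraries themselves differed, and the log2 fold change was 1.22 (standard error 0.32, unadjusted p = 0.0117, adjusted p = 0.161, limma). *Snapc3* overlaps *Psip1* on the other strand, and the strand setting of the counting is not given in the sources used here. Other members, among them *Suz12* and *Phf19*, also overlap genes on the other strand, and not every such overlap is named.

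The 4 *Kmt2* genes encode the large H3K4 methyltransferases MLL1 to MLL4. *Kmt2d* (chromosome 15, 98831669 to 98871204) had an FPKM of 1.70 and 1.97 in CD37 fl/fl LSCs and 2.89 and 3.69 in CD37-/- LSCs, a log2 fold change of 0.80 (standard error 0.25, unadjusted p = 0.0222, limma). *Kmt2a* (chromosome 9, 44803355 to 44881296), the gene for MLL itself, had 0.401 and 0.501 against 0.643 and 0.876, with a log2 fold change of 0.63 and an unadjusted p of 0.0751 (limma). The retroviral MLL-AF9 fusion was not analysed here, and whether its reads were counted under *Kmt2a* or *Mllt3* was not tested. *Kmt2b* and *Kmt2c* had log2 fold changes of 0.65 and 0.30 (unadjusted p = 0.0657 and 0.334, limma). All 4 genes were higher without overlap between the groups, as were 42.2% of all tested genes. Once the trend with exon length described below was removed, *Kmt2a*, *Kmt2b*, *Kmt2c* and *Kmt2d* were at 0.20, 0.25, -0.14 and 0.36. None of these had an unadjusted p under 0.05 (limma). The make-up of the 4 genes differed little. *Kmt2a* took 14.5% and 14.8% of the summed exon FPKM of the 4 genes in CD37 fl/fl LSCs and 14.9% and 15.3% in CD37-/- LSCs, and *Kmt2d* 26.1% and 24.8% against 28.4% and 27.4%, without overlap. *Kmt2c* took 12.8% and 9.65% against 10.1% and 8.99%, and *Kmt2b* 46.5% and 50.7% against 46.5% and 48.2%.

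WDR5, RBBP5, ASH2L and DPY30 form the core shared by all MLL family enzymes, and their genes did not move together. *Wdr5* (chromosome 2, 27515157 to 27536535) had an FPKM of 6.18 and 6.89 in CD37 fl/fl LSCs and 9.60 and 12 in CD37-/- LSCs. With no overlap between the groups, this gave 0.71 on the log2 scale (standard error 0.23, unadjusted p = 0.027, limma). *Rbbp5* stood at 0.52, *Dpy30* at 0.04 and *Ash2l* at -0.13 on the same scale, none with an unadjusted p under 0.05, and the CD37 fl/fl and CD37-/- libraries overlapped for *Dpy30* and *Ash2l*. Among the 4 genes, *Dpy30* held the largest share of exon FPKM in every library, between 41.5% and 56.5%. The ratio of *Wdr5* to *Ash2l* was 1.47 and 1.13 in CD37 fl/fl LSCs and 1.76 and 3.06 in CD37-/- LSCs, where most of the distance came from CD37-/- replicate 2.

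DOT1L methylates lysine 79 of histone H3, and AF9, ENL (*Mllt1*), AF10 (*Mllt10*) and the AFF scaffolds link it or the elongation factors to chromatin. *Dot1l* FPKM was 1.87 and 1.84 in CD37 fl/fl LSCs and 2.14 and 2.62 in CD37-/- LSCs, a log2 fold change of 0.34 (standard error 0.23, unadjusted p = 0.209, limma). *Aff1* (chromosome 5, 103692374 to 103855322), which encodes AF4, had 0.575 and 0.559 against 0.890 and 1.01. The replicates of *Aff1* were close, and the log2 fold change of 0.65 had a standard error of 0.24 (unadjusted p = 0.0433, limma). *Aff4* was at 0.57, *Mllt1* at 0.22 and *Mllt10* at 0.20. *Mllt3*, the gene for AF9, was below the filter with 30 and 75 reads in CD37 fl/fl LSCs and 139 and 139 in CD37-/- LSCs, and its exon FPKM was 0.163 and 0.361 against 0.653 and 0.512. *Men1*, the gene for menin, had an FPKM of 6.36 and 8.91 against 7.34 and 8.66, and these overlapping groups gave a log2 fold change of 0.08 (standard error 0.26).

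**Figure D2:**
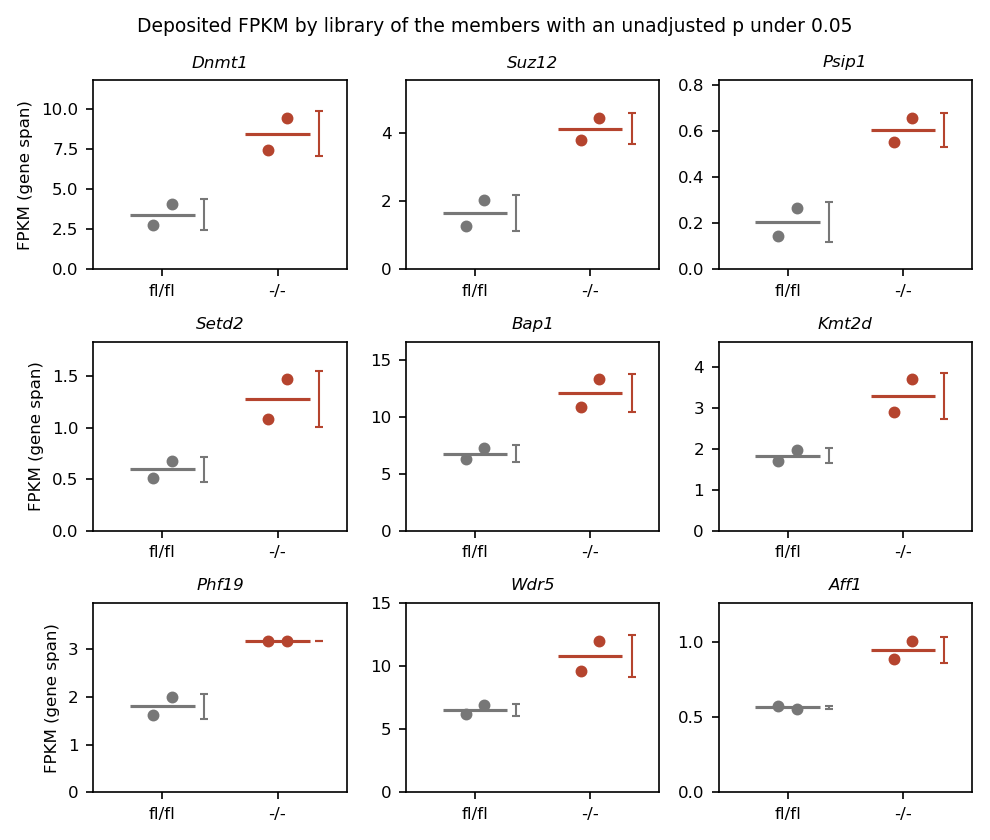
FPKM of the 9 members with an unadjusted p under 0.05 in each library, with grey points for CD37 fl/fl, red points for CD37-/-, lines for the mean and bars for the SD (n = 2); each axis starts at 0. Both CD37-/- libraries lie above both CD37 fl/fl libraries for each of the 9 genes.

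Polycomb genes had a median of 0.31 over 14 genes. At an unadjusted p under 0.05, 3 were higher (*Suz12*, *Bap1* and *Phf19*; 21.4%, against 16.5% of all tested genes). Without the trend with exon length, 1 was higher (*Suz12*; 9.66% of all genes). SUZ12 is the scaffold of PRC2, EED reads the H3K27 mark, and EZH2 or EZH1 is the catalytic subunit. *Suz12* (chromosome 11, 79993106 to 80034123) had an FPKM of 1.28 and 2.03 in CD37 fl/fl LSCs and 3.80 and 4.44 in CD37-/- LSCs (1.66 ± 0.529 and 4.12 ± 0.447, SD, n = 2), from 806 and 1443 reads against 2768 and 4117. Both CD37-/- libraries were well above both CD37 fl/fl libraries, and the log2 fold change was 1.29 (standard error 0.30, unadjusted p = 0.00668, adjusted p = 0.145, limma). *Ezh2* had 1.33 and 1.79 against 1.89 and 2.12, a log2 fold change of 0.35 (standard error 0.26, unadjusted p = 0.23, limma). *Eed* had 2.77 and 2.63 against 2.78 and 2.60, with a log2 fold change of -0.00 and overlapping groups. *Ezh1* was at 0.40.

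The make-up of the PRC2 transcripts therefore differed between the groups. *Suz12* accounted for 22.9% and 30.2% of the summed exon FPKM of *Suz12*, *Eed*, *Ezh2* and *Ezh1* in CD37 fl/fl LSCs and for 42.9% and 45.7% in CD37-/- LSCs. *Eed* took 41.1% and 32.4% against 26% and 22.3%, and *Ezh2* 28.1% and 31.4% against 25.1% and 25.7%. Such shares are formed within a library, so that a single scaling factor for each library cannot change them. The trend with exon length described below can, and shares without that trend were not computed. The ratio of *Suz12* to *Ezh2* was 0.818 and 0.961 in CD37 fl/fl LSCs and 1.71 and 1.78 in CD37-/- LSCs, and that of *Suz12* to *Eed* 0.558 and 0.932 against 1.65 and 2.05. The exon length of *Suz12* (4945 bases) lies between those of *Eed* (3828) and *Ezh2* (6678), and the part of exon length in these ratios was not tested. With 2 libraries a group the smallest p of an exact permutation test is 0.333, so shares and ratios are given as values, and the pairs were chosen with their values known.

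**Figure D3:**
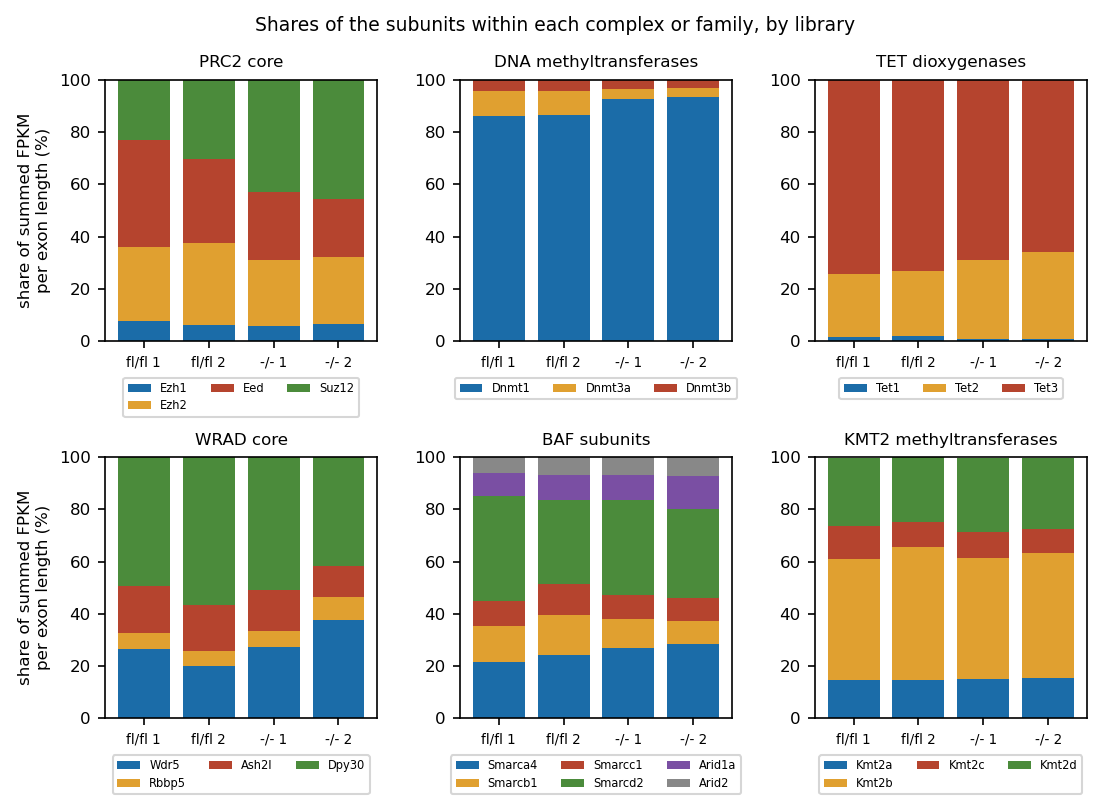
Share of each subunit or family member in the summed exon FPKM of its complex or family (percent), for each of the 4 libraries. The share of *Suz12* among the PRC2 genes is 22.9% and 30.2% in CD37 fl/fl libraries, against 42.9% and 45.7% for CD37-/-, while *Kmt2a* takes between 14.5% and 15.3% of the KMT2 family in all 4.

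PHF19 is an accessory subunit that brings PRC2 to chromatin, and JARID2 is another. *Phf19* (chromosome 2, 34893757 to 34914026) had an FPKM of 1.61 and 1.99 in CD37 fl/fl LSCs and 3.16 and 3.17 in CD37-/- LSCs. The log2 fold change was 0.79 (standard error 0.23, unadjusted p = 0.0186, limma). *Jarid2* varied more between replicates than between genotypes, with 1.67 and 0.851 against 1.71 and 0.917. BAP1 is the deubiquitinase that removes the PRC1 mark from histone H2A with ASXL proteins as partners. *Bap1* (chromosome 14, 31251450 to 31259944) had an FPKM of 6.27 and 7.31 against 10.9 and 13.3, a log2 fold change of 0.82 (standard error 0.23, unadjusted p = 0.0155, limma). *Asxl1* and *Asxl2* were at 0.12 and 0.27, and the ratio of *Bap1* to *Asxl1* was 0.541 and 0.678 in CD37 fl/fl LSCs and 0.956 and 1.03 in CD37-/- LSCs.

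Of the PRC1 genes, 0 of 5 had an unadjusted p under 0.05 with limma, and 1, *Cbx7* (0.034), with limma-voom. *Apobec3* overlaps *Cbx7* on the other strand. *Bmi1*, known for its part in stem cell self-renewal, had an FPKM of 2.88 and 3.27 in CD37 fl/fl LSCs and 2.79 and 3.28 in CD37-/- LSCs, a log2 fold change of -0.02. *Rnf2*, the E3 ligase RING1B, was at 0.61 and overlaps *Trmt1l* on the other strand. The CBX readers of the H3K27 mark differed among themselves, with *Cbx7* at 0.65, *Cbx8* at -0.15 and *Cbx2* at -0.31 on the log2 scale. *Cbx2* rested on only 21 to 69 reads a library.

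The BAF genes had a median of 0.13 over 6 genes, and 0 had an unadjusted p under 0.05 with limma on the deposited scale. Of all tested genes, 16.5% were higher and 5.61% lower at that threshold. *Smarca4*, the ATPase BRG1, had a log2 fold change of 0.37, *Arid1a* of 0.33, *Arid2* of 0.20, *Smarcd2* of 0.07 and *Smarcc1* of -0.15. *Smarcb1* (chromosome 10, 75896769 to 75921617), which encodes the core subunit SNF5, had an FPKM of 6.34 and 7.08 in CD37 fl/fl LSCs and 5.36 and 4.56 in CD37-/- LSCs. It was the only tested member whose CD37-/- values both lay below the CD37 fl/fl values. The log2 fold change was -0.43 (standard error 0.22, unadjusted p = 0.109, limma), and it was -0.61 (unadjusted p = 0.034) after quantile normalization and -0.06 (unadjusted p = 0.83) after TPM rescaling. The ratio of *Smarca4* to *Smarcb1* was 1.54 and 1.57 in CD37 fl/fl LSCs and 2.41 and 3.14 in CD37-/- LSCs.

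Genes of DNA methylation had a median of 0.48 over the 6 tested of 7. *Dnmt1* was the 1 with an unadjusted p under 0.05 (16.7%, against 16.5% of all tested genes higher). DNMT1 copies methylation to the new strand after replication, with UHRF1 as its guide, and DNMT3A and DNMT3B methylate unmodified sites. *Dnmt1* (chromosome 9, 20907209 to 20959888) had an FPKM of 2.74 and 4.08 in CD37 fl/fl LSCs and 7.44 and 9.43 in CD37-/- LSCs (3.41 ± 0.946 and 8.43 ± 1.41, SD, n = 2), from 2210 and 3720 reads against 6952 and 11242. The lower CD37-/- library was well above the higher CD37 fl/fl library, and the log2 fold change was 1.30 (standard error 0.29, unadjusted p = 0.00588, adjusted p = 0.14, limma). *Dnmt3a* had 0.341 and 0.478 against 0.337 and 0.410, with overlapping groups and a log2 fold change of -0.10 (standard error 0.29). *Dnmt3b* was at 0.52 and *Uhrf1* at 0.45 on the log2 scale, neither with an unadjusted p under 0.05.

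Within the DNMT family, *Dnmt1* held 86.1% and 86.6% of the exon FPKM in CD37 fl/fl LSCs and 92.9% and 93.4% in CD37-/- LSCs, whereas *Dnmt3a* held 9.80% and 9.26% against 3.84% and 3.70%. The ratio of *Dnmt1* to *Dnmt3a* was 8.79 and 9.35 in CD37 fl/fl LSCs and 24.2 and 25.2 in CD37-/- LSCs, so that replicates lay close together and the groups apart. The exon length of *Dnmt3a* (16642 bases) is greater than that of *Dnmt1* (7377 bases), and the part of exon length in this ratio was not tested. *Tet2* had an FPKM of 0.344 and 0.256 in CD37 fl/fl LSCs and 0.478 and 0.643 in CD37-/- LSCs, a log2 fold change of 0.72 (standard error 0.30, unadjusted p = 0.0567, limma). *Tet3* was at 0.35. *Tet1* was barely detected, with 27 and 27 reads in CD37 fl/fl LSCs and 17 and 27 in CD37-/- LSCs. In the TET family, *Tet3* held between 65.8% and 74.2% of the exon FPKM, and *Tet2* 24.2% and 24.8% in CD37 fl/fl LSCs against 30.3% and 33.4% in CD37-/- LSCs.

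The 4 remaining members had a median of 0.47. SETD2 trimethylates lysine 36 of histone H3 along transcribed genes. *Setd2* (chromosome 9, 110532597 to 110618633) had an FPKM of 0.514 and 0.683 in CD37 fl/fl LSCs and 1.09 and 1.47 in CD37-/- LSCs, a log2 fold change of 0.98 (standard error 0.29, unadjusted p = 0.0181, adjusted p = 0.173, limma). *Nsd1*, which dimethylates the same residue, was at 0.21, and the ratio of *Setd2* to *Nsd1* was 0.714 and 0.902 against 1.37 and 1.55. *Kdm1a*, the H3K4 demethylase LSD1, was at 0.73 (unadjusted p = 0.0801, limma) and overlaps *Luzp1* on the other strand. *Jmjd1c* was at -0.01, with CD37-/- values that lay between those of the CD37 fl/fl libraries.

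Levels of the members, as the mean exon FPKM of each group, covered a wide range. *Dpy30* was highest in both groups, at 91.7 in CD37 fl/fl and 92.5 in CD37-/- LSCs. In CD37 fl/fl LSCs *Smarcd2* (52.1), *Uhrf1* (48.0) and *Wdr5* (38.9) came next, and *Dnmt1* (24.3) lay below *Smarca4* (32.8), *Ash2l* (30.6) and *Jarid2* (24.9). In CD37-/- LSCs the means of *Uhrf1* (65.2), *Wdr5* (64.1) and *Dnmt1* (60.2) lay above that of *Smarcd2* (54.2). For *Dnmt1* this did not hold in CD37-/- replicate 1, where it was at 53.1 and *Smarcd2* at 54.6. The exon FPKM of *Wdr5* was 36.8 and 41 in CD37 fl/fl LSCs, against 57.6 and 46.5 for *Smarcd2*. In CD37-/- LSCs *Wdr5* was at 57.1 and 71.2 and *Smarcd2* at 54.6 and 53.9. These neighbours did not overlap within either group, and their order was reversed between the groups, with only 2 libraries in each. At the lower end, as means of the 4 libraries, were *Dnmt3b* at 1.56, *Cbx2* at 0.56, *Mllt3* at 0.422 and *Tet1* at 0.0885.

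The fold changes in these libraries moved with transcript length. When all tested genes were split into quintiles by exon length, the median log2 fold change was -0.02 in the shortest quintile and 0.39 in the longest (6650 bases or more). In the longest quintile the median deviation from the CD37 fl/fl mean was 0.28 in CD37-/- replicate 1 and 0.51 in replicate 2, and in the shortest quintile it was 0.11 and -0.17. The members are long, with a median exon length of 7377 bases against 3623 for all tested genes, and 24 of the 45 fell in the longest quintile. In that quintile the members had a median of 0.33 and 4 of 24 had an unadjusted p under 0.05 and a positive sign, against 20% of all its genes. In the next quintile (4435 to 6649 bases) 4 of 9 members were higher, against 19% of its genes, and in the middle quintile 1 of 11 was higher, against 16.5%, with a members' median of 0.08 where that of all its genes was 0.22. After the trend with exon length was removed from each library, 4 members were higher (*Dnmt1*, *Suz12*, *Psip1* and *Setd2*; 9.66% of all genes) and 1, *Smarcb1*, was lower (11.2% of all genes). The log2 fold changes were then 0.93 for *Dnmt1* (unadjusted p = 0.0139, limma), 0.98 for *Suz12* (0.0147), 0.90 for *Psip1* (0.0231), 0.57 for *Setd2* (0.0481) and -0.82 for *Smarcb1* (0.0217). The median of the members was then that of all genes, -0.05 for each, and the medians of the Polycomb and BAF groups turned to -0.09 and -0.19, while those of MLL and DOT1L, DNA methylation and the remaining genes were 0.15, 0.18 and 0.09. After quantile normalization the medians of the Polycomb and BAF groups were also below 0, at -0.05 each.

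**Figure D4:**
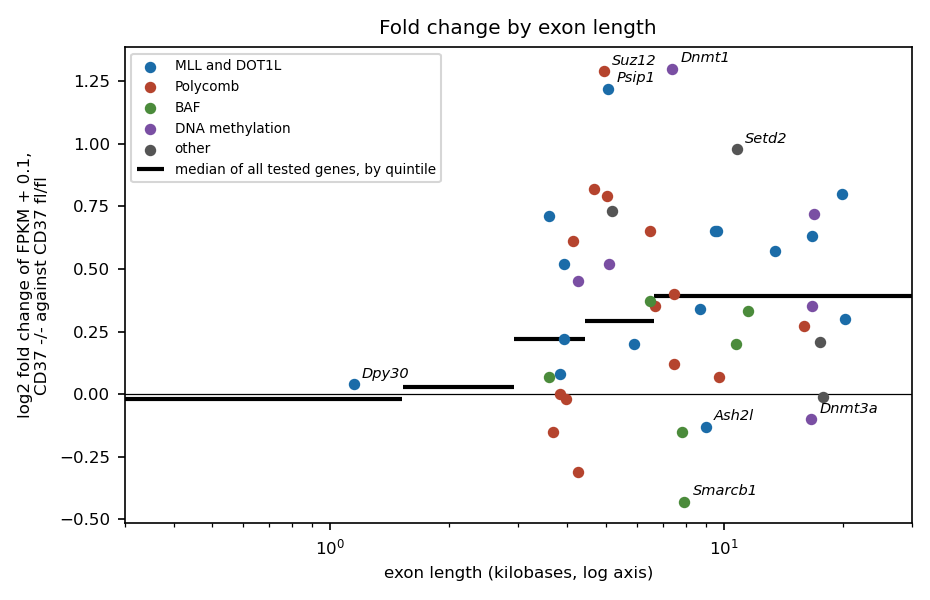
Log2 fold change against exon length (kilobases, log axis) for the 45 tested members, coloured by group, with black lines for the median of all tested genes in each quintile of exon length, the outermost of which run past the axis. The medians of all genes run from -0.02 in the shortest to 0.39 in the longest quintile, and 24 of the 45 members lie in the longest.

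A second list of 119 chromatin genes outside the set was counted in the same fit, of which 113 were in the table and 106 passed the filter. At an unadjusted p under 0.05, 31 were higher (29.2%; all genes 16.5%) and 1 was lower (0.943%; all genes 5.61%), with a median of 0.49 and 0 at an adjusted p under 0.05. These counts moved with the scale. Once the length trend was removed, 15 were higher and 7 lower with a median of 0.17, after quantile normalization 14 and 5 with a median of 0.25, and after TPM rescaling 51 and 0 with a median of 0.84. Polycomb genes of the list had a median of 0.64 with 6 of 22 higher, and included *Bcor* (1.40) and *L3mbtl2* (1.49), which belong to variant PRC1 complexes. The BAF genes had a median of 0.61 with 6 of 16 higher, among them *Brd9* (1.30) and *Actl6a* (1.49), so that the BAF members of the set, with 0 of 6, and the other BAF subunits gave different counts, a difference that was not tested. Genes tied to MLL had a median of 0.49 with 5 of 19 higher, such as *Cxxc1* and *Paxip1* (1.12 each), subunits of SETD1 and of MLL3/4 complexes. In DNA methylation 3 of 13 were higher with a median of 0.11, including the methyl-CpG binding *Mbd4* (1.23) and *Mbd2* (1.00). Of the remaining genes 11 of 36 were higher, among them the acetyltransferase gene *Kat5* (1.36) and the bromodomain gene *Brd2* (1.21). The 1 lower gene was *Ehmt2*, which encodes the H3K9 methyltransferase G9a, with an FPKM of 17.9 and 19.7 in CD37 fl/fl LSCs and 11.2 and 11.5 in CD37-/- LSCs (log2 fold change -0.73, unadjusted p = 0.0169, limma). After removal of the length trend *Ehmt2* was at -1.06, and after TPM rescaling it was at -0.35 (unadjusted p = 0.21, limma). *L3mbtl2*, *Actl6a*, *Brd9*, *Mbd4*, *Kat5* and *Brd2* overlap genes on the other strand.

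Markers of other cells and of proliferation were measured in the same libraries. Of 13 proliferation genes, 6 were higher at an unadjusted p under 0.05 (*Top2a*, *Cdk1*, *Plk1*, *Pcna*, *Mcm2* and *Rrm2*), 0 were lower, and the median log2 fold change was 0.73. The summed FPKM of the 13 was 161 and 203 in CD37 fl/fl LSCs and 277 and 298 in CD37-/- LSCs, so it moved the same way as *Dnmt1* and *Suz12*, and its part in their values was not tested. *Mki67* was at 0.09 and *Tyms* at -0.02. The 7 erythroid genes in the table (of 8) had a summed FPKM of 60.9 and 5.17 in CD37 fl/fl LSCs and 576 and 143 in CD37-/- LSCs, with 5 of 5 tested higher and none at 0, and their part was not tested. Of the B cell genes, *Cd79b* had an FPKM of 12.5 and 15.3 against 8.02 and 6.16 and *Cd79a* of 0.244 and 0.0719 against 0.304 and 0.321, while *Pax5* was at 0 in CD37 fl/fl replicate 2. The 2 T and NK cell genes in the table (of 5) summed to 94.6 and 118 against 40.2 and 41.3, nearly all from *Nkg7*. *Cd3g* went the other way, with 0 reads in both CD37 fl/fl libraries and 9 and 2 in CD37-/- LSCs. The sum is therefore a value of *Nkg7* rather than of T and NK cells. Megakaryocyte genes (8.26 and 3.94 against 6.38 and 15.2) and macrophage and dendritic cell genes (182 and 83 against 52.3 and 110) overlapped between the groups. Of the myeloid progenitor genes, *Kit*, the gene of the sorted marker, was at an FPKM of 0.170 and 0.325 against 0.327 and 0.434, *Elane* was between 1750 and 1884, and *Mpo* was at 80.3 and 51.6 against 34.4 and 20.8 (log2 fold change -1.26, unadjusted p = 0.0173, limma). *Ptprc*, the gene of the leukocyte antigen CD45, was at 0.765 and 0.841 against 1.78 and 2.93 (log2 fold change 1.40, unadjusted p = 0.00591, limma), and *Cd34* was below the filter, with 5 and 16 reads against 6 and 15. The sums over 8 of these 9 genes were 2254 and 3267 against 2311 and 2167. In bulk RNA, fewer cells of a type and less RNA per cell cannot be told apart.

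The count of higher members rested on CD37-/- replicate 2 more than on any other library. Without it, 0 of the 45 members had an unadjusted p under 0.05 (limma), although the 9 genes kept positive log2 fold changes of 0.55 to 1.19. Without CD37 fl/fl replicate 1 the count was 3 (*Dnmt1*, *Psip1* and *Suz12*), without CD37-/- replicate 1 it was 7 and without CD37 fl/fl replicate 2 it was 8. *Dnmt1*, *Suz12* and *Psip1* had an unadjusted p under 0.05 in each setting but the one without CD37-/- replicate 2 and, for *Psip1*, those with a minimum mean FPKM of 1, in which it was not tested. For the fits without 1 library the share of all genes was not counted. A TPM rescaling, which lifts the median of all genes to 0.55, gave 16 higher members (28.8% of all genes), 0 lower (2.07% of all genes) and a median of 0.70.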

How the data were processed

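Strand-specific (dUTP) libraries were made from the poly(A) RNA of sorted LSCs, with 2 replicates for each genotype. The authors deposited FPKM values, 1 column per library, without a log. Per the submitters' processing notes, which name tools without their roles, fastp 0.20.1, STAR 2.7.7a, featureCounts 2.0.0, edgeR and mm39 were used. The paper's methods name limma.

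Of 17104 gene identifiers, 17045 (99.7%) matched GENCODE M21 (GRCm38). With its gene spans, 98.9% to 99.0% of low values were whole reads within 0.05 reads (chance 10.0%), and with exon lengths 9.7% to 10.3%. The recovered depth of CD37 fl/fl replicates 1 and 2 was 15327373 and 17327717 reads, and that of CD37-/- replicates 1 and 2 was 17740468 and 22627546. The replicates of a genotype were checked for duplicate deposits and differed beyond counting noise (chi-square divided by its degrees of freedom, 93.4 for CD37 fl/fl and 61 for CD37-/-).

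Values were tested as log2(FPKM + 0.1) for genes with a mean of at least 0.1, in limma 3.58.1 (lmFit, trended eBayes) under R 4.3.3, two-sided, and p-values were adjusted by Benjamini-Hochberg at a threshold of 0.05. The code was tested on simulated data. 1 marker gene is not reported here. Python 3.11.15 was used for tables, promoter counts and figures (matplotlib 3.10.9, numpy 2.4.6, pandas 2.3.3). Every member is named. Full values are given for members with an unadjusted p under 0.05 and no overlap (up to 12 in each direction) and for *Kmt2a*, *Mllt3*, *Men1*, *Dot1l*, *Ezh2*, *Dnmt3a* and *Tet2*, and of the other chromatin genes up to 2 in each group and direction are named. *Smarcb1*, the values in every library of *Jarid2*, *Bmi1* and *Eed*, and the ratios were chosen after their values were seen. The members and lists were chosen with earlier results of these data known. Alternatives were other pseudocounts, filters, scalings and variance estimates, removal of the trend with exon length (loess, span 0.5), a replicate block, limma-voom on recovered reads and each library left out.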

Additional observations from a re-analysis of the deposited data

How the results depend on the processing

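At an adjusted p under 0.05, 0 genes were called under each alternative run. The median of the members (0.35) was 0.18 with a pseudocount of 1, 0.05 after quantile normalization, 0.70 after TPM rescaling, 0.18 after upper quartile scaling and -0.05 once the trend with exon length was removed, with or without the replicate block; the median of all genes moved too, to 0.10, -0.03, 0.55, 0.07 and -0.05. Without 1 library each it ran from 0.27 to 0.45. The count of higher members (9) was 5 after quantile normalization, 16 after TPM rescaling, 16 with limma-voom on recovered reads, 4 without the length trend and 3 without it under the replicate block, and 0 to 8 without 1 library each, where the lone library was taken to vary like the other group. The count of lower members (0) was 1, *Smarcb1*, under quantile normalization, upper quartile scaling and removal of the length trend, with or without the block. A cause for these moves was not tested. Shares of all genes were counted only for the main fit, quantile normalization, TPM rescaling and the unblocked removal of the length trend. The counts under limma-voom, the replicate block and the fits without 1 library therefore have no background beside them. The 9 higher members kept their sign under each alternative in which they were tested. Of the 36 members without a call, 15 changed sign without the length trend, 11 under quantile normalization, 7 under TPM rescaling, 5 under upper quartile scaling and 3 to 7 without 1 library each.

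Libraries with the same replicate number did not deviate together (r = -0.06 over 11774 genes, 2 pairs), so the numbers were not taken as pairs. With the replicate number as a block, 9 members were higher, 8 of them in common with the unblocked fit, with *Kmt2b* in and *Aff1* out. An edgeR test on the recovered reads was not run, since the deposited unit is FPKM. With 2 libraries a group, a call depends on each library, and depth is not known from the authors but recovered from the values. Members at or under 0.1 FPKM (*Mllt3*, *Tet1*) could be tested only with the recovered reads or with all genes above 0, and *Mllt3* had an unadjusted p of 0.0497 with limma-voom.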
